A study of Homo sapiens with 2 samples.

Results

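A small set of 5-kb bins took part in a large share of the TCF3::HLF-HiChIP interactions of TCF3-KO HAL-01 cells. These bins, called hub anchors here, were chosen by their number of listed interactions, which had to be 10 or more. There were 1126 of them among 53535 anchor bins. The cutoff of 10 called 2.10% of all anchor bins. Because the number of interactions chose the bins, every value that rests on this number is a description and has no test.

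HAL-01 is an established B cell acute lymphoblastic leukemia line with t(17;19). The cells carried Cas9GFP and t(17;19), and their wild-type TCF3 allele was knocked out with a sgRNA and stable selection. The pull-down used an E2A (TCF3) antibody, so that the fusion protein was the target. The design held 1 condition with 2 replicates of the same line, which the authors merged before interaction calling. No value below therefore has a replicate error, and neither replicate could be left out. The list held 49245 interactions between bins from 50 to 3000 kb apart, and their contact counts (numbers of read pairs that join both bins) added up to 1268490. All values come from a single cell line, and control pull-downs were not analysed here. HiChIP gives no expression levels, so that the cell type could not be checked against marker genes.

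TCF3::HLF joins the activation domains of TCF3, an E protein, to the basic leucine zipper of HLF, a member of the PAR bZIP family. The DNA contact of the fusion therefore comes from HLF, whose dimers bind palindromic sequences of the form TTACGTAA. In HiChIP, chromatin is ligated by proximity and then enriched for a protein, so that a bin bound by this protein can be captured with many surrounding bins. A hub anchor in such a list is a bin with many separate significant partners, and this is not the same as many partners in the same cell.

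Exact copies of TTACGTAA and TTATGTAA, on either strand, were counted as HLF motifs. The sequences below are 30-base windows around the motif nearest to the bin center, with TTACGTAA preferred where present, read 5′ to 3′ on the strand of the motif in hg38. They are shown because they come from 14 of the hub anchors with the most interactions, and the capitals mark the motif.
NETO1, 177 kb from its start site, chr18:73047958-73047987, plus strand: ataaagttgagTTATGTAAcagagagttat
PHACTR2, intron, chr6:143577452-143577481, plus strand: agtattaaagaTTATGTAAgattttgactt
WSCD2, 79.3 kb from its start site, chr12:108047463-108047492, plus strand: gcataatgtagTTATGTAAtgctttctttc
PRDM13, 11.8 kb from its start site, chr6:99593124-99593153, plus strand: actggggatgaTTATGTAAcagtttgctac
SEC14L1, intron, chr17:77099121-77099150, plus strand: gctgtggagggTTATGTAAcagtggttatg
RABGAP1L, intron, chr1:174942965-174942994, minus strand: aagcaaggctgTTATGTAAtcattctgctg
ENSG00000281883, intron, in the noncoding gene NRAD1, chr13:43912057-43912086, plus strand: cacattacatgTTACGTAAtgcttttactt
HS3ST3A1, 246 kb from its start site, in a noncoding gene, chr17:13306821-13306850, minus strand: tgggccggaagTTATGTAAcccatgtggtg
DOCK2, bin with an exon, chr5:169705502-169705531, minus strand: gcttagagaggTTATGTAActgcctcaaca
MCF2L2, intron, chr3:183391772-183391801, plus strand: agaaacggaagTTATGTAAttaaagagttt
MINDY4, bin with an exon, chr7:30787708-30787737, plus strand: gactcggctagTTATGTAAaagggaagtta
LRP1B, intron, chr2:141841368-141841397, minus strand: aaatacatccaTTATGTAAcaaacgagaat
ZEB2, intron, chr2:144372539-144372568, plus strand: agcctcccgagTTACGTAAcaggtccccat
KTN1, 217 kb from its start site, chr14:55893104-55893133, plus strand: cctttagggaaTTACGTAAcaccaccagca
The motif was preceded by A or G in all 14 windows and followed by C or T in 12, the exceptions being those of PHACTR2 and MINDY4.

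The same neighboring bases were counted over all motifs. Of the 1009 copies of TTATGTAA in hub anchors, 51.6% (Wilson 95% interval, 48.6 to 54.7%) had A or G before and C or T after the motif. In flanking bins, which lie 25 kb from a hub anchor and are not anchors themselves, this held for 18.6% (15.6 to 21.96%) of 576 copies. G preceded the motif in 34.8% of copies in hub anchors and in 11.3% of copies in flanking bins. C followed it in 36.3% and 13.0%, respectively. A preceding A had about the same share in both, with 33.2% and 31.1%. For TTACGTAA, 49 of 94 copies in hub anchors and 4 of 33 in flanking bins had A or G before and C or T after. Wilson intervals here cover counting error only, and neighboring bins are not independent. Neighboring bases were not counted in anchor bins with fewer interactions, so that these shares cannot be called particular to hub anchors. Peaks of the pull-down were the reference for interaction calling, and bins were not matched to peaks here. Differences between hub anchors and flanking bins therefore cannot be told apart from differences between peaks and other bins.

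Copies of the motif per bin were counted as well. Exactly 1 HLF motif was found in 497 hub anchors, exactly 2 in 190, exactly 3 in 50 and 4 or more in 14, while 375 had none. At least 2 motifs were found in 22.6% (20.2 to 25.1%) of hub anchors and in 5.98% (4.95 to 7.21%) of the 1705 flanking bins. The mean number of copies per bin was 0.980 in hub anchors, 0.659 in bins with 5 to 9 interactions and 0.357 in flanking bins. Bins with 5 to 9 interactions thus lay between hub anchors and flanking bins, and raised motif counts were not limited to hub anchors. The bin with the most copies, 12, lies in PIK3C3 on chromosome 18 and had 14 interactions, far from the most interactions. Within the hub anchors, a motif was present in 60.4% (55.8 to 64.8%) of the 452 bins with 10 to 11 interactions, in 67.6% of the 333 bins with 12 to 14, in 67.3% of the 199 bins with 15 to 19 and in 83.8% (76.9 to 89.0%) of the 142 bins with 20 or more. The interval of the last class lies above those of the other 3.

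Other motifs were counted in the same way, and for most of them the intervals of hub anchors and flanking bins overlapped. A C/EBP-type sequence, TTGCGTAA, which differs from the HLF palindrome by a single base, was found in 4.62% (3.54 to 6.01%) of hub anchors, in 1.23% (0.807 to 1.88%) of flanking bins and in 1.62% of all 5-kb bins of the genome. For the AP-1 sequence TGACTCA the shares were 58.1% and 57.4%, for the RUNX sequence TGTGGTTT 38.0% and 36.0%, for the GATA sequence AGATAAG 52.4% and 53.0%, and for the E-box CAGGTG, the type of site that TCF3 itself can bind, 96.4% and 96.0%. The PU.1-type sequence GAGGAAGT was found in 26.6% (24.14 to 29.3%) and 21.99% (20.1 to 24.02%). Bins with 5 to 9 interactions were close to the hub anchors in both sequences, with TTGCGTAA in 3.71% (3.13 to 4.39%) and GAGGAAGT in 26.1% (24.7 to 27.6%), and the intervals overlap, so that neither is particular to hub anchors. A strict form of the CTCF motif was found in 13 of 1126 hub anchors and 6 of 1705 flanking bins, against 0.562% of all genome bins. In the genome, 30.6% of 5-kb bins held an HLF motif of either form, 52.8% the AP-1 sequence, 36.2% the RUNX sequence, 50.8% the GATA sequence, 93.8% the E-box and 23.03% the PU.1-type sequence. A match is a description and does not show binding.

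The 375 hub anchors without an HLF motif were compared with the 751 that held one. TTGCGTAA was found in 8.80% (6.33 to 12.1%) of the bins without and in 2.53% (1.63 to 3.92%) of the bins with a motif, and GAGGAAGT in 32.8% (28.2 to 37.7%) and 23.6% (20.7 to 26.7%). Their median numbers of interactions were 12 and 13 and their median reach was 270 and 265 kb. Protein-coding start sites were present in 11.2% and 9.85%. In 209 of the 375 (55.7%; 50.7 to 60.7%) an adjoining bin held an HLF motif. The same was the case for 49.0% (46.2 to 51.8%) of the flanking bins without a motif, so that the intervals overlap. A bin without a motif lay beside another hub anchor in 18.7% (15.05 to 22.9%) and a bin with a motif in 12.5% (10.3 to 15.1%).

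The numbers of interactions formed a long tail. The median hub anchor had 12 interactions (quartiles, 11 and 15), and the range ran from 10 to 65. A total of 341 hub anchors had 15 or more, 142 had 20 or more and 33 had 30 or more. Just inside the cutoff, 256 bins had 10 interactions, with a median summed contact count of 256 (range, 189 to 553), a median reach of 245 kb and an HLF motif in 61.7%. Just outside, 344 bins had 9 interactions, with a median summed contact count of 232 (153 to 400), a median reach of 242.5 kb and a motif in 58.7%. The values on both sides of the cutoff lay close together.

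**Figure D1:**
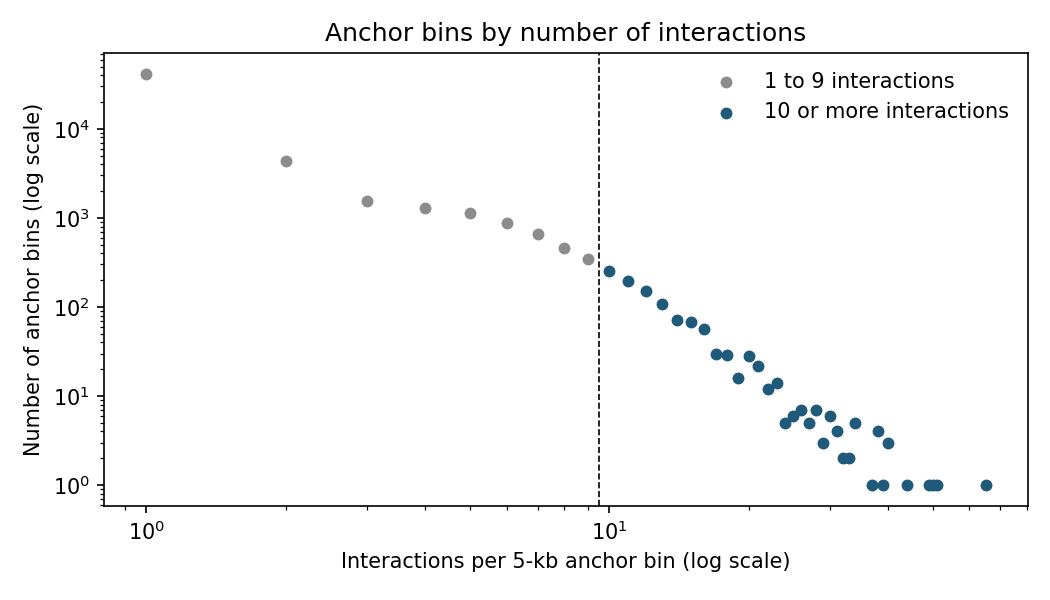
Number of anchor bins (y axis, log scale) by the number of interactions per bin (x axis, log scale), with the 1126 bins of 10 or more interactions in blue and all others in gray. The counts fall without a break at the dashed cutoff, from 344 bins with 9 interactions to 256 with 10, and a single bin reaches 65.

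The hub anchors touched 15764 interactions (32.0% of the list), and these held 35.5% of all contact counts. Only 142 of these interactions (0.901%; 0.765 to 1.06%) joined a hub anchor with another one. A total of 228 hub anchors (20.2%) had another hub anchor among their partners, and none had more than 3. Of the 15197 distinct partner bins, 82.4% took part in no other interaction of the list. Single use was common in the whole list, with 41745 of all 53535 anchor bins. Among the 14969 partner bins that were not hub anchors themselves, 613 (4.10%) were shared by more than 1 hub anchor, and at most 4 hub anchors shared a bin. Most partner bins were thus tied to a single hub anchor, in a list where most anchor bins had a single interaction.

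The partner bins were close to other bins used once in motif and start site content. An HLF motif was found in 29.4% (28.6 to 30.2%) of the 12527 bins used once by a hub anchor and in 28.1% (27.6 to 28.6%) of the 29218 bins used once elsewhere. A protein-coding start site was found in 6.89% (6.46 to 7.35%) and 7.64% (7.34 to 7.95%), respectively. At least 1 partner with a protein-coding start site was listed for 655 hub anchors (58.2%; 55.3 to 61.0%), with a median of 1 and at most 8 such partners.

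The gene context of the hub anchors was close to that of bins with 5 to 9 interactions. A start site of a protein-coding transcript lay in 116 hub anchors (10.3%; 8.66 to 12.2%) and a protein-coding exon without a start site in 219 (19.4%). Protein-coding intron only was found in 349 (30.99%), a noncoding gene only in 187 (16.6%) and no annotated gene in 255 (22.6%; 20.3 to 25.2%). The share with a protein-coding start site was 9.41% (8.48 to 10.4%) in bins with 5 to 9 interactions, 8.99% in bins with 2 to 4 and 7.41% (7.16 to 7.67%) in bins with 1. It was 6.04% (5.01 to 7.27%) in the flanking bins and 5.49% in all genome bins. Protein-coding intron only made up 30.6% of bins with 5 to 9 interactions, 31.6% of flanking bins and 24.9% of all genome bins. The shares outside annotated genes were 24.2%, 26.3% and 34.8%, respectively. Start sites of long noncoding RNA genes lay in 7.46% (6.07 to 9.14%) of hub anchors and 3.52% (2.74 to 4.50%) of flanking bins. The median distance to the nearest protein-coding start site was 30.1 kb (quartiles, 6.78 and 112 kb), and 58 hub anchors lay more than 500 kb from any. An HLF motif was present in 63.8% of the hub anchors at protein-coding start sites and in 65.1% of those outside genes. Their median numbers of interactions were both 12. A protein-coding start site lay in 8.45% (4.90 to 14.2%) of the hub anchors with 20 or more interactions in 10.1% of those with 15 to 19, in 10.5% of those with 12 to 14 and in 10.8% (8.30 to 14.04%) of those with 10 to 11, and the intervals of the first and last class overlap.

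**Figure D2:**
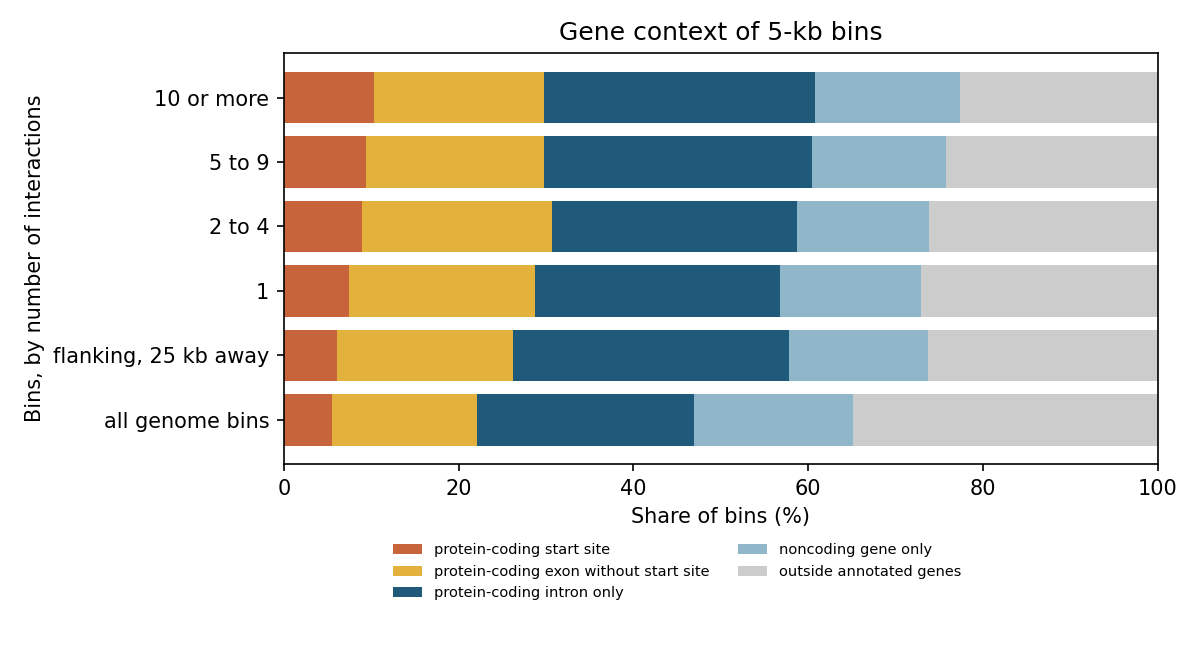
Share of 5-kb bins (x axis, %) in 5 gene contexts, for bins with 10 or more, 5 to 9, 2 to 4 and 1 interaction, for bins 25 kb from a hub anchor and for all genome bins. The hub anchors hold a protein-coding start site in 10.3% and lie outside annotated genes in 22.6%, against 5.49% and 34.8% of all genome bins.

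The hub anchors at protein-coding start sites had at most 31 interactions. The bin at MRPS23, a mitochondrial ribosomal protein gene on chromosome 17, had 31 interactions, 10 toward lower and 21 toward higher coordinates. ZFYVE9, which codes for an adaptor of TGF-β receptor signaling, had 29 on chromosome 1. NR3C1, the glucocorticoid receptor gene, had 29 at its start on chromosome 5, with 12 partners at lower and 17 at higher coordinates and 3 partners that were hub anchors themselves. The bin at the start of SLIT2, a gene of axon guidance on chromosome 4, had 21 interactions, and no partner bin of it held a protein-coding start site.

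Each of the 20 hub anchors with the most interactions had at least 33 of them. None held a protein-coding start site. Of these bins, 10 lay in protein-coding introns only, 3 held an exon, 3 lay in noncoding genes only and 4 outside genes, and 15 held an HLF motif. More partners lay at higher coordinates in 14 of them. The first bin, from 73045001 to 73050000 on chromosome 18, lies outside genes, 177 kb from the start of NETO1, which codes for an auxiliary subunit of kainate receptors. It had 65 interactions, 18 toward lower and 47 toward higher coordinates, and a summed contact count of 2519. Its strongest partner lay 70 kb away and had 149 contacts (exact Poisson 95% interval, 126 to 175). Copies of read pairs were not removed from the contact counts, so that all Poisson intervals given here can be too narrow.

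Intronic hub anchors followed. The bin in SNTG1, a syntrophin gene on chromosome 8, had 51 interactions, 40 of them toward higher coordinates. On the same chromosome, a bin in the noncoding gene CCDC26 had 50, split 29 to 21, with no partner at a protein-coding start site and a strongest contact count of 57 (43.2 to 73.9). The bin in PHACTR2, a regulator of actin and protein phosphatase 1, had 49 on chromosome 6. Its strongest partner lay 435 kb away, with a contact count of 260 (229 to 294), and other partners held the start sites of UTRN, ADAT2, PEX3 and HIVEP2. Each of these strongest contact counts was picked as the largest of its bin, so that their intervals do not compare the bins. The median contact counts over all partners were 24 for the CCDC26 bin and 27 for the PHACTR2 bin.

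Some of the top hub anchors reached many start sites and others few. The bin near WSCD2 on chromosome 12, with 44 interactions, had 7 partners at protein-coding start sites, among them FICD at 470 kb with a contact count of 47 (34.5 to 62.5) and CMKLR1, a chemoattractant receptor gene, at 275 kb with 44 (32.0 to 59.1). The bin in SEC14L1 on chromosome 17, with 39 interactions, also had 7, among them MGAT5B, CYGB, RHBDF2 and SEPTIN9. Its contact count with a downstream start site of SEC14L1 itself, 95 kb away, was 112 (92.2 to 135). The bin in RABGAP1L on chromosome 1, with 38 interactions, had 6, among them MRPS14, ZBTB37, KLHL20 and PRDX6, and the last of these lay at -1465 kb (negative, lower coordinate). In contrast, the bins in LRP1B (34 interactions) and in ZEB2 (34 interactions), a transcription factor gene of hematopoietic differentiation, had none. The span of the LRP1B bin held 3 protein-coding gene starts and that of the ZEB2 bin 2.

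The strongest single contact among the 20 belonged to the bin 7.25 kb from the start of KIF3C, a kinesin gene, on chromosome 2. Its contact count with a bin 155 kb away was 336 (301 to 374). The hub anchor itself held no HLF motif. The bin on chromosome 13 in ENSG00000281883 and NRAD1, 30.1 kb from the start of LACC1, reached TSC22D1, a leucine zipper gene, at 525 kb with a contact count of 108 (88.6 to 130), the largest of its 38 interactions. The bin in DOCK2, which codes for a Rac exchange factor of hematopoietic cells, reached TENM2, a teneurin gene, at -1775 kb with 38 (26.9 to 52.2). The bin in LPP, with 33 interactions, reached BCL6, a transcriptional repressor gene of B cells, at -550 kb with 82 (65.2 to 102).

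**Figure D3:**
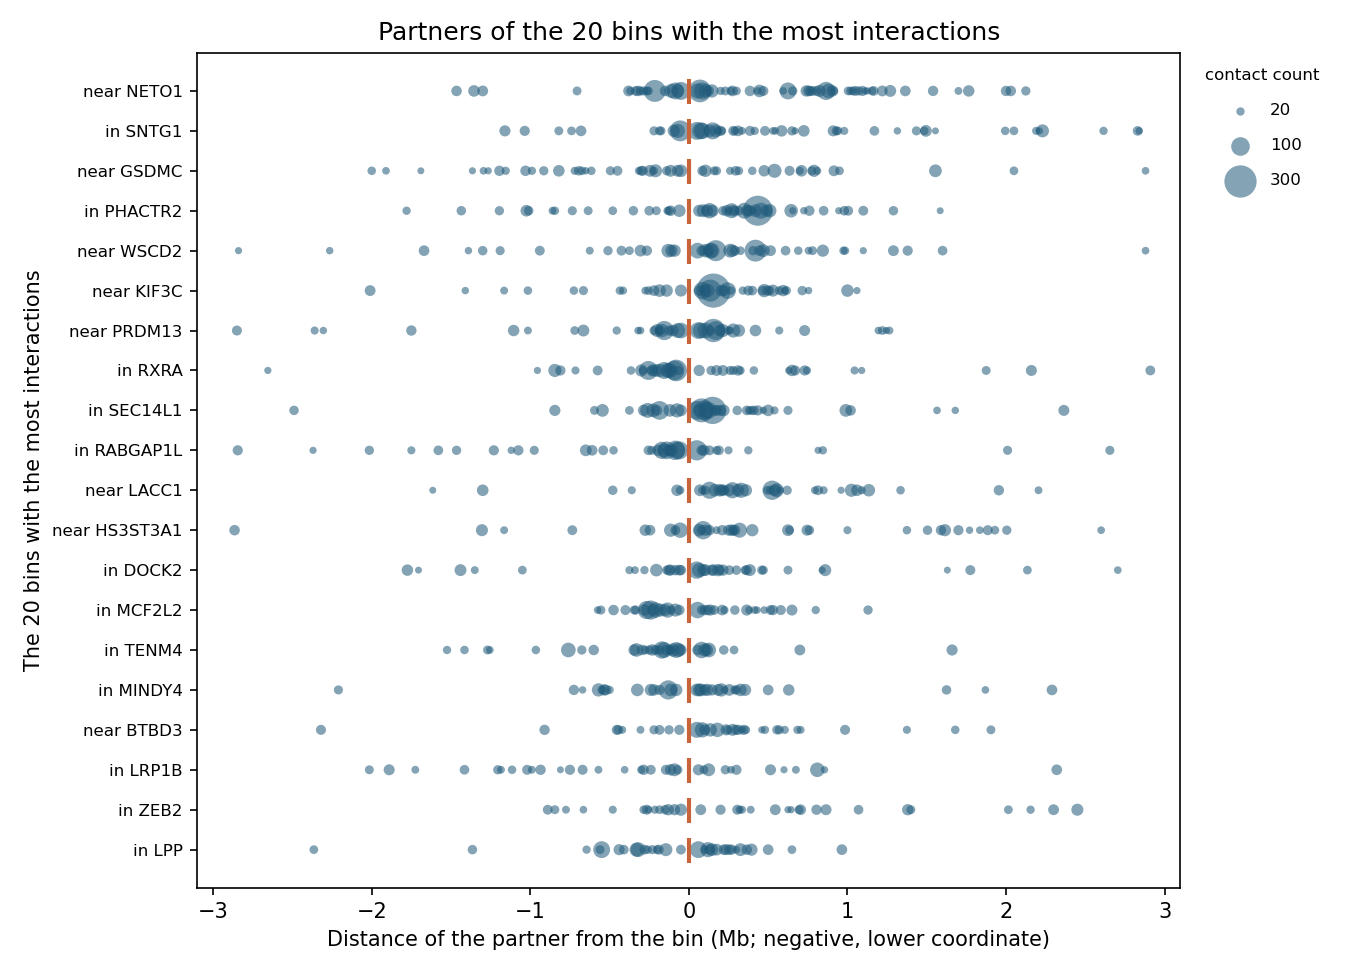
Position of every partner of the 20 hub anchors with the most interactions (x axis, distance from the bin in Mb, negative for lower coordinates), with 1 line per bin named by its gene or the nearest protein-coding start site and point areas proportional to the contact count. The largest point, with a contact count of 336, belongs to the bin near KIF3C, and PHACTR2 has its strongest partner (260) at 435 kb.

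Partners lay on both sides of most hub anchors. Over all hub anchors, 50.5% (49.8 to 51.3%) of the interaction ends pointed toward higher coordinates. A total of 426 hub anchors (37.8%) had 40 to 60% of their partners on each side, 230 (20.4%; 18.2 to 22.9%) had 80% or more on one side and 20 (1.78%; 1.15 to 2.73%) had all of them there, 9 at lower and 11 at higher coordinates. In bins with 5 to 9 interactions, 31.8% had 80% or more on one side and 7.80% all of them, but fewer partners reach such a share more easily. The share with 80% or more on one side was 27.7% (23.7 to 32.0%) in hub anchors with 10 to 11 interactions. It was 14.1% (10.8 to 18.3%) in those with 12 to 14 and 23.1% (17.8 to 29.4%) in those with 15 to 19. In those with 20 or more it was 8.45% (4.90 to 14.2%). Partners come in whole numbers, so that exactly 80% is possible with 10 or 15 partners but not with 12 to 14. The classes therefore meet the cutoff unequally, and no trend is read from them.

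Among the bins with 20 or more interactions, only that near DCN had all partners on one side. Near DCN on chromosome 12, a bin in a noncoding gene had all 20 partners at higher coordinates, with a median reach of 1040 kb and a nearest partner at 95 kb. The bin in IL17RD had 19 of 22 partners at higher coordinates, and those in ARHGAP10 and near TMCO5A each had 18 of 21. Toward lower coordinates, the bin near TNS3 had 27 of 31 partners, that at SLIT2 18 of 21 and that near STT3B 17 of 20. Of the 230 bins with 80% or more of their partners on one side, 113 had fewer protein-coding gene starts within 1 Mb on the side of the partners than on the other, 101 had more and 16 had as many. Only 6 of the 230 lay within 3 Mb of a chromosome end.

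Gene orientation was compared as well. A total of 639 hub anchors overlapped exactly 1 protein-coding gene. In these, 50.9% (49.8 to 51.9%) of the interaction ends pointed in the direction of transcription. Of their partners, 24.3% (23.5 to 25.2%) lay inside the same gene, and 182 of the 639 (28.5%) had no partner there.

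The nearest partner of a hub anchor usually lay close to the lower limit of the list, while the farthest lay beyond 1 Mb. The median of the nearest partner was 55 kb, that of the median reach 269 kb (quartiles, 202.5 and 377 kb) and that of the farthest partner 1728 kb. A partner at 2 Mb or more was listed for 446 hub anchors (39.6%), and all partners lay within 1 Mb for 238 (21.1%). Over the interactions, the median distance was 275 kb (95% interval, 270 to 280 kb) with a hub anchor and 240 kb (240 to 245 kb) without. Distances under 100 kb made up 17.3% (16.7 to 17.9%) and 21.0% (20.5 to 21.4%), respectively. The median reach was 259 kb (240 to 280 kb) in hub anchors with 10 to 11 interactions, 252.5 kb (240 to 270 kb) in those with 12 to 14, 267.5 kb (255 to 305 kb) in those with 15 to 19 and 301 kb (280 to 320 kb) in those with 20 or more.

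**Figure D4:**
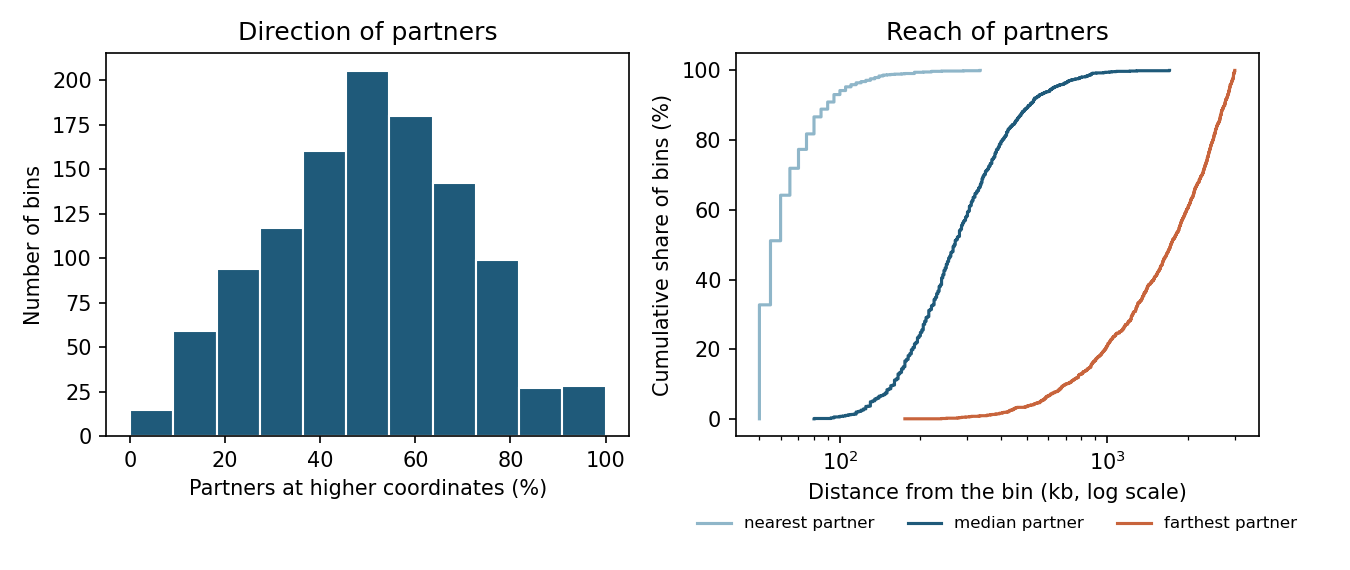
Left, number of hub anchors (y axis) by the share of their partners at higher coordinates (x axis, %, 11 classes of equal width). Right, cumulative share of hub anchors (y axis, %) by the distance of their nearest, median and farthest partner (x axis, kb, log scale), with medians of 55, 269 and 1728 kb.

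Contact counts were set beside distance. From 50 to 100 kb, the median contact count was 30 (quartiles, 23 and 40) with a hub anchor and 25 (19 and 32) without. From 200 to 500 kb it was 25 and 23, and from 2 to 3 Mb 22 and 21. The difference in medians thus was 5 at the shortest distances and 1 at the longest, and the quartiles overlapped in each band. Single bin pairs, with no merged neighbor, made up 87.1% (86.6 to 87.6%) of the interactions with a hub anchor and 94.7% (94.5 to 94.98%) of the others.

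The extremes of median reach were found in hub anchors with 10 to 14 interactions. A median over few partners varies more, so that no trait of smaller hub anchors is read from these extremes. The longest median reach, 1710 kb, belonged to a bin in an intron of SLC35F3 on chromosome 1 with 11 interactions. It was followed by a bin at PARVB and PARVG on chromosome 22 (1290 kb, 11 interactions) and a bin in ZNF407 on chromosome 18 (1212.5 kb, 14 interactions). The shortest, 80 kb, was shared by a bin in SGMS1 on chromosome 10, whose farthest partner lay 275 kb away, and a bin near TINAGL1 on chromosome 1. A bin 19.96 kb from the start of CD27, a member of the TNF receptor family of lymphocytes, came next with 92.5 kb, and 5 of its 10 partners held protein-coding start sites.

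Along the chromosomes the hub anchors were unevenly spaced. The median gap between neighbors was 870 kb (quartiles, 145 and 3142.5 kb), 164 (14.6%) had a hub anchor in the next bin and 295 (26.2%) had none within 1 Mb. Joined over gaps under 25 kb, they formed 1006 regions, of which 898 were a single bin and the largest held 4 bins, in LRP1B. Of the 316 windows of 10 Mb, 59 held none, and the densest, from 140000001 to 150000000 on chromosome 5, held 20. The windows cover full chromosome lengths, including stretches without sequence that can hold no anchor bin. Several genes held more than 2 hub anchors, with 6 inside LPP or within 10 kb of its start sites, 5 each in LRP1B, KLHL13 and CDK14, and 4 in MEF2C among others. The stretches between the farthest partners of each hub anchor covered, as a union, 1427 Mb (47.1% of chromosomes 1 to 22 and X), in 318 separate territories. A total of 52.3% of the 19970 protein-coding genes start in them, and the longest, 25.9 Mb on chromosome 20, contains 19 hub anchors. The longest gap, 78.1 Mb, lies on chromosome X.

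The density was 0.371 per Mb of full chromosome length over all chromosomes. Full lengths include stretches without sequence, where no anchor bin can be called, so that the order of the chromosomes can depend on them. By full length, the density was highest on chromosome 20 (0.528 per Mb, 34 hub anchors), followed by chromosome 10 (0.478 per Mb). It was lowest on chromosome X (0.103 per Mb, 16 hub anchors) and chromosome 19 (0.119 per Mb, 7 hub anchors). Chromosome 19 has 25.2 protein-coding genes per Mb and chromosome 13, with 0.455 hub anchors per Mb, 2.82. However, chromosome X has 5.50 and chromosome 20 has 8.47, so that no steady order by gene density is read from these chromosomes. Relative to the number of anchor bins, chromosome 21 came first with 28.3 per 1000 anchor bins and chromosome 19 last with 8.34. On chromosome 19, 10.9% of the interactions touched a hub anchor and the largest had 12 interactions, while on chromosome 3 the share was 38.5%.

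**Figure D5:**
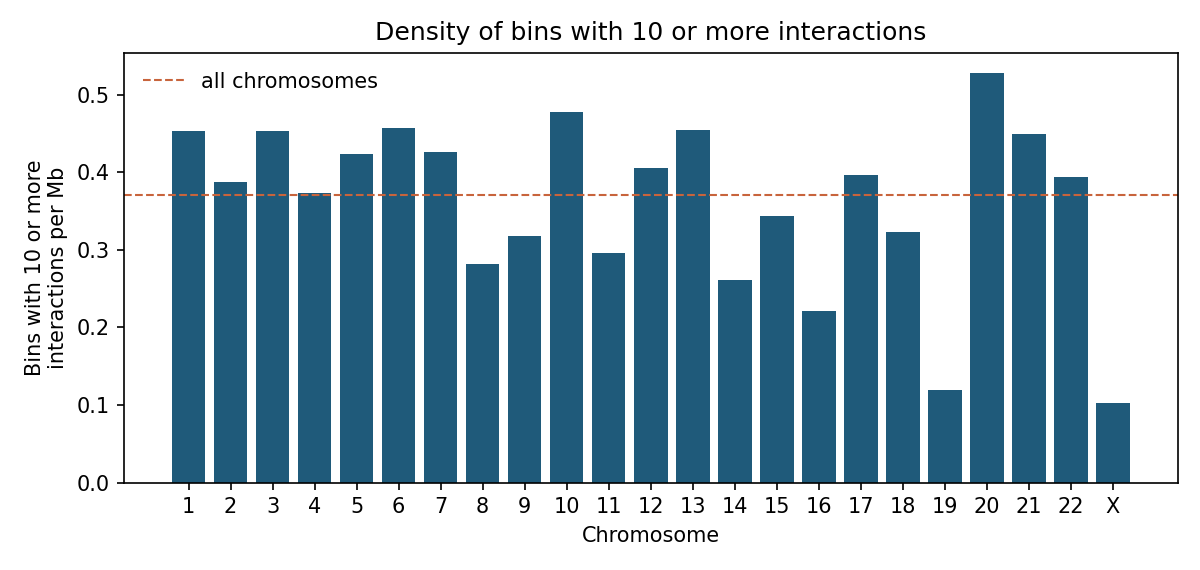
Hub anchors per Mb of full chromosome length (y axis) on chromosomes 1 to 22 and X (x axis). The dashed line is the value of 0.371 over all chromosomes. Chromosome 20 is highest with 0.528, and chromosomes X (0.103) and 19 (0.119) are lowest.

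Genes of several lineage, signaling and other functional lists were compared with all protein-coding genes. A gene was counted when a hub anchor lay inside it or within 10 kb of a start site. This was the case for 656 of 19970 protein-coding genes (3.28%), and the share depends on gene length, with 1.03% of genes under 20 kb and 17.5% of genes of 300 kb or more. Among B-lineage transcription factors, it was the case for 5 of 22 genes. TCF12, an E protein gene, had a bin with 14 interactions, IKZF1, which codes for Ikaros, one with 13, split 8 to 5, FOXP1 bins with 12 and 11, and BACH2 a pair of bins with 11 each. Among stem cell and leukemia transcription factors, it was 6 of 28 genes. ZEB2 led with 34, followed by MEF2C with 4 bins of 10 to 16, MYC with 15, of which 12 lay at higher coordinates, and ETV6 with 14. The median length of the genes was 105 kb in the first and 42.8 kb in the second list, against 27.5 kb over all protein-coding genes.

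Other lists contained fewer genes with hub anchors, except for that of synaptic and neuronal adhesion genes. It had 8 of 41, led by SNTG1 with 51, LRP1B with 34 and TENM4 with 34, but its median gene length was 898 kb. Among B cell and cytokine signaling genes, 2 of 34 had one, namely VAV3 (20 and 15) and PRKCB, which codes for protein kinase C beta (15). All 15 partners of the smaller VAV3 bin lay at higher coordinates. Chromatin regulators had 3 of 45 (HDAC4 with 20, ARID2 with 13 and CHD7 with 10). The list of PAR bZIP and C/EBP genes, which also includes the related bZIP gene NFIL3, had 1 of 9. This was NFIL3, with 10 interactions in a bin outside the gene but within 10 kb of a start site. Cytosolic ribosomal protein genes had 1 of 71, RPL35A. The numbers were 0 of 37 for leukocyte surface molecules (Wilson 95% upper bound, 9.41%) and 0 of 18 for BCL2 family genes (17.6%).

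The same lists were examined from the side of the partners. A start site in a partner bin of a hub anchor was found for 1032 protein-coding genes (5.17%). Leukocyte surface molecules, which contained no hub anchor, were reached in 6 of 37 cases. ITGA4, an integrin subunit gene, had 235 contacts (206 to 267) with a hub anchor 150 kb away. CD72 was joined with 82 (65.2 to 102) over 50 kb and CD86 with 58 (44.04 to 74.98) at -265 kb. CD44, CD47 and ITGB1 had contact counts of 17 to 39. B cell and cytokine signaling genes were reached in 7 of 34 cases, among them SOCS1, an inhibitor of JAK-STAT signaling, with 84 (67.0 to 104) from a bin in CLEC16A, and GAB1 with 64 (49.3 to 81.7). Chromatin regulators were reached in 9 of 45 cases, with contact counts of 16 to 45.

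Of the B-lineage transcription factors, 4 of 22 were reached, with IKZF1 at 66 (51.0 to 84.0) from a hub anchor 160 kb away, BCL6 at 82 and 48 from separate bins in LPP, FOXP1 at 28 and ID2 at 17. Among stem cell and leukemia factors, it was 5 of 28. The largest contact count was that of MEF2C, 322 (288 to 359), between a pair of hub anchors 60 kb apart in the gene. Cytosolic ribosomal protein genes were reached in 3 of 71 cases, BCL2 family genes in 2 of 18 (BID with 36, HRK with 18), synaptic and neuronal adhesion genes in 3 of 41, and PAR bZIP and C/EBP genes in 0 of 9 (Wilson 95% upper bound, 29.9%). The shares can be set beside the 5.17% of all protein-coding genes. Their Wilson intervals lay above it for B-lineage and stem cell factors, surface molecules, signaling genes and chromatin regulators (lowest bound, 7.31%). The intervals included it for ribosomal protein, BCL2 family, synaptic, and PAR bZIP and C/EBP genes. However, the lists were chosen with earlier results of these data known, and gene length was not matched. With small lists and wide intervals besides, nothing particular to a list is read from these counts.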

How the data were processed

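TCF3::HLF-HiChIP of TCF3-KO HAL-01 cells was used (2 replicates, merged). Per the labels and the methods of the study, the authors trimmed reads with Trim Galore 0.6.6, aligned with BWA-MEM (hg38) and extracted pairs with pairtools. They left out its dedup step, so that copies of a read pair could add to the contact counts. Peaks came from MACS2, and interactions from FitHiChIP, with 5-kb bins, distances from 50 kb up to 3 Mb and a q-value limit of 0.01, whose option to merge close contacts was used. Partners of the same bin were never adjacent (0 of 14780 gaps were 5 kb), so that a counted partner can stand for its neighborhood. The deposited contact counts are not normalized, and the deposited q-value compares a bin pair with a distance background. The label of this value, Q-Value_Bias, also names a bias term, the form of which is not given in the sources used here. The FitHiChIP version and the type of interaction called (peak to all bins or other) are not given in the sources used here. The peaks were the reference for calling interactions, but bins were not matched to them here. Which end of an interaction was a peak is therefore not known.

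Each end of an interaction was counted for its bin. Every hub anchor lay within its hg38 chromosome (0 past an end). Genes came from GENCODE release 44 on hg38, and all 305 list entries matched a symbol. Distances are between bin starts, and positions are 1-based. Shares have Wilson 95% intervals and medians binomial order-statistic intervals, which cover counting error only. Contact counts have exact Poisson intervals, which take each read pair as independent. Since copies of read pairs were not removed, the Poisson intervals can be too narrow even for counting error. No test was run, since the merged list has no replicate values and bins of the same library are not replicates. Of the interactions with hub anchors, 1 joined bins with 500 or more shared 31-mers.

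Sequences are shown for the 14 highest ranks with an HLF motif, and bins on chromosome 8 were passed over. Named by rule were the 20 bins with the most interactions, the 3 most one-sided bins in each direction among those with 20 or more, the 3 longest and 3 shortest median reaches, and up to 4 genes per list with a hub anchor. Start-site bins, genes reached by partners, the bin with most motif copies, genes with most hub anchors and the split by HLF motif were chosen after their values were seen. Bins and gene lists were chosen with earlier results of these data known. Counting was tested on simulated data (50 of 50 planted bins and 200 of 200 planted motifs recovered). Alternatives are given in the closing section. Python 3.11.15 was used with matplotlib 3.10.9, scipy 1.17.1, pandas 2.3.3 and numpy 2.4.6.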

Additional observations from a re-analysis of the deposited data

How the results depend on the processing

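The number of hub anchors was 142 with a cutoff of 20 or more interactions per bin, 438 with a q-value under 1e-05, all of which are among the 1126, and 558 with contact counts of at least 20. It stayed within 1.5 times the reported number, from 755 to 1232, in the other 7 settings, the lowest with partners of a bin less than 25 kb apart counted once, which was chosen after seeing the data together with counting each merged group once (1120) and leaving out near-identical bin pairs (1126). The share of interactions that touch a hub anchor was 26.1% (q-value under 0.001), 18.0% (1e-05), 23.2% (contact count of at least 20), 25.9% (at most 1 Mb) and 7.49% (20 or more interactions). Protein-coding start sites were found in 8.45% with 20 or more interactions, and a start site lay in the bin in 21.8% counting all genes and within 10 kb in 29.5%. The share outside genes was 25.6% (1e-05), 26.1% (20 or more interactions) and 39.3% (protein-coding genes only). All partners lay on one side in 0.704% with 20 or more interactions. The median reach was 240 kb (contact count of at least 20), 230 kb (at most 1 Mb) and 301 kb (20 or more interactions). The ratio of the densest to the sparsest chromosome, 5.15 per Mb, was 14.6 with a q-value under 1e-05, between chromosomes 20 and 19. The share with an HLF motif was 8.35% for TTACGTAA only and 72.1% with a q-value under 1e-05. The cause of these shifts was not tested. No paired analysis was possible because the authors merged the replicates, and no replicate could be left out. Depth limits single interactions, since a contact count of 28, as between the PHACTR2 bin and UTRN, has an exact Poisson interval of 18.6 to 40.5.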
